A study of Mus musculus with 10 samples.

Results

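The genotype by arsenite interaction is the arsenite response of ATF4-deficient mouse cortical neurons minus the arsenite response of wildtype neurons, gene by gene. It uses all 10 arrays of the series in 4 groups taken from the sample titles, and it was estimated for 22180 genes, each read by its brightest probe set with 1 gene symbol out of 41345 probe sets in all. The neurons came from the cortex of mouse embryos at embryonic day 14.5 to 15.5 and were cultured for 7 days. Sodium arsenite at 5 µM, which reacts with protein thiols, or vehicle was then given for 12 hours. RNA of the whole culture was measured on Affymetrix arrays. The groups are wildtype with vehicle (WT-Ctrl, 2 arrays), wildtype with arsenite (WT-ARS, 4 arrays), ATF4-deficient with vehicle (KO-Ctrl, 2 arrays) and ATF4-deficient with arsenite (KO-ARS, 2 arrays). The labels leave out how Atf4 was altered and whether replicates are separate embryos, litters or cultures. Replication is marked as biological for every array, but how independent the replicates are is thus unknown. The p-values measure the spread between them.

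ATF4 is the transcription factor at the end of the integrated stress response. In that pathway, kinases that sense stress phosphorylate the initiation factor eIF2, most protein synthesis slows, and translation of the Atf4 mRNA rises. ATF4 pairs with other basic leucine zipper proteins on C/EBP-ATF elements and turns on genes for amino acid synthesis, amino acid uptake, tRNA charging and stress regulation. Arsenite is a classic trigger of this pathway, and it also induces NRF2 targets and heat shock proteins. Neurons hold another fast program, the activity-regulated genes, in which calcium entry and cAMP signalling act through CREB and MEF2 to induce transcription factors such as Fos and Npas4 and, later, secreted and synaptic effectors.

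An interaction is negative when a gene rose less, or fell more, with arsenite in the ATF4-deficient cultures than in the wildtype ones. The same number is the genotype difference under arsenite minus the genotype difference under vehicle, so it does not say in which treatment the genotypes differed. All values are log2 expression values, on which a difference of 1 is a 2-fold difference, and limma fitted all groups together with Benjamini-Hochberg adjustment over all genes tested. Of the 22180 genes, 0 passed an adjusted p of 0.05 in the interaction (0% of the genes), and the smallest adjusted p was 0.34, shared by 13 genes. At an unadjusted p under 0.05 stood 1330 genes (6.0%), of which 605 (2.73%) had the lower response in ATF4-deficient cultures and 725 (3.27%) the higher one. An unadjusted p under 0.001 was reached by 32 genes (0.144%), where evenly spread p-values would put 22.2 there, and 14 of the 32 had a group mean below the dim reference described below. What follows therefore gives estimates with 95% intervals and, for the responses and genotype differences that compose them, their own adjusted p from the same fit. No single interaction below passed the adjusted threshold. The interaction and its components share arrays, so a component is not a second measurement of the interaction. Calls in the components depended on single arrays. Over all genes, 0 wildtype responses passed without WT-Ctrl replicate 1, and 0 genotype differences under vehicle passed without WT-Ctrl replicate 2 or KO-Ctrl replicate 2. Every call in those comparisons below was lost in these fits. Where a gene is said to be kept in a number of fits, these are the 10 fits that each leave out 1 array.

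Array medians lay between 6.75 and 6.81. Along the first principal component KO-ARS replicate 2 had a score of 29.4, and the remaining 9 arrays had scores of -18.2 to 8.70. WT-ARS replicates 2 and 3 stood apart in the fibroblast and meningeal markers, whose mean was 7.51 and 7.40 there and 6.73 to 6.91 on the other arrays. Postn, a matrix protein of that list, was at 7.80 and 7.48 on those arrays and between 5.43 and 5.98 on the others. Neuronal markers were high throughout. Map2 lay between 12.01 and 12.31 and Stmn2 between 12.56 and 12.85. The leukocyte marker Ptprc lay between 4.57 and 5.03, below the dim reference of 6.63, which is the 90th percentile of olfactory and vomeronasal receptor genes. In RNA from a whole culture, fewer cells of a type and less RNA per cell cannot be told apart.

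Atf4 itself was lower in every ATF4-deficient array. It stood at 9.09 and 9.56 in WT-Ctrl, at 9.43, 9.80, 9.64 and 9.91 in WT-ARS, at 7.65 and 7.48 in KO-Ctrl, and at 7.54 and 7.70 in KO-ARS. The wildtype and ATF4-deficient arrays did not overlap. The genotype difference was -1.76 under vehicle (adjusted p = 0.00876) and -2.08 under arsenite (adjusted p = 0.000718, limma). The interaction of Atf4 was -0.32 (95% interval -0.84 to 0.20). What remained of the signal in the ATF4-deficient arrays lay above the dim reference.

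The interactions with the lowest p were mostly negative, from genes highest in ATF4-deficient cultures under vehicle. Of the 12 negative genes named next, all fell with arsenite in ATF4-deficient cultures, and 5 of these falls were kept in all 10 fits (Lgr5, Nr4a1, Adcyap1, Rxfp1 and Npas4). Under vehicle 9 of the 12 were called higher in ATF4-deficient cultures, and 0 were without WT-Ctrl replicate 2 or KO-Ctrl replicate 2. Over all genes 0.523% fell in ATF4-deficient cultures and 0.180% were higher there under vehicle. The values of the 12 share arrays with the interaction that chose them. High counts therefore come with the choice and are given as a description. Leaving out clone names and olfactory and vomeronasal receptors, 26 genes had an unadjusted p under 0.001, 21 of them negative and 5 positive. Among the 12 negative genes taken by the naming rule were Fos, Npas4 and Nr4a1, immediate early transcription factors, and Pcsk1 and Adcyap1, a prohormone convertase and the precursor of the neuropeptide PACAP. The others were Rxfp1, Lgr5, Kitl, Slc40a1, Rgs13, Cdh18 and Adamts1. Each of these 12, and each of the 5 positive genes below, kept its sign when any 1 array was left out. Those fits reuse most of the arrays that chose the genes, so they are no independent check.

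Fos (probe set 17277387) was at 7.02 and 7.02 in WT-Ctrl, at 7.00, 6.66, 6.77 and 6.95 in WT-ARS, at 8.50 and 8.22 in KO-Ctrl, and at 7.13 and 6.35 in KO-ARS. Both KO-Ctrl arrays lay above all other arrays, and the remaining groups overlapped or nearly met. In ATF4-deficient cultures Fos fell by 1.62 with arsenite (adjusted p = 0.00686), against a change of -0.18 in wildtype (adjusted p = 0.81, limma). The interaction was -1.44 ± 0.28 (SE), with a 95% interval of -2.06 to -0.82. Without KO-Ctrl replicate 1 the fall of Fos no longer passed.

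Npas4 (probe set 17361435), a transcription factor induced by calcium entry in neurons, had the same shape. It was at 7.5 and 7.23 in WT-Ctrl, at 7.13, 6.74, 7.02 and 6.75 in WT-ARS, at 8.72 and 8.44 in KO-Ctrl, and at 7.04 and 6.58 in KO-ARS. The KO-Ctrl arrays stood alone at the top, and the KO-ARS arrays lay within 0.2 of the WT-ARS range. The gene fell by 1.77 with arsenite in ATF4-deficient cultures (adjusted p = 0.00198, limma), and this call held without any 1 array. Its interaction was -1.32 (95% interval -1.85 to -0.79).

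Nr4a1 (probe set 17315178), an orphan nuclear receptor of the immediate early class, was at 8.03 and 7.77 in WT-Ctrl, at 7.62, 7.61, 7.36 and 7.62 in WT-ARS, at 8.94 and 9.06 in KO-Ctrl, and at 7.75 and 7.58 in KO-ARS. Under vehicle the ATF4-deficient arrays were higher by 1.10 (adjusted p = 0.0110), and under arsenite the difference was 0.11 (adjusted p = 0.73, limma). The interaction was -0.99 (95% interval -1.37 to -0.62). Its relatives Nr4a2 and Nr4a3 had interactions of -0.77 and -1.07. Both fell in ATF4-deficient cultures, with changes of -1.38 and -2.13 (adjusted p = 0.00198 and 0.00288, limma). Nr4a3 and the other list members named here without being taken by the naming rule were chosen after their values were seen.

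Pcsk1 (probe set 17288677), which cuts prohormones in secretory granules, was at 6.62 and 6.6 in WT-Ctrl, at 6.86, 6.59, 6.55 and 6.66 in WT-ARS, at 7.99 and 8.59 in KO-Ctrl, and at 6.96 and 7.30 in KO-ARS. The ATF4-deficient arrays lay above the wildtype arrays under both treatments, by 1.68 under vehicle (adjusted p = 0.0110) and by 0.47 under arsenite (adjusted p = 0.28, limma). The wildtype level was close to the dim reference, so the size of these differences is not exact. The interaction was -1.22 (95% interval -1.75 to -0.69).

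**Figure D1:**
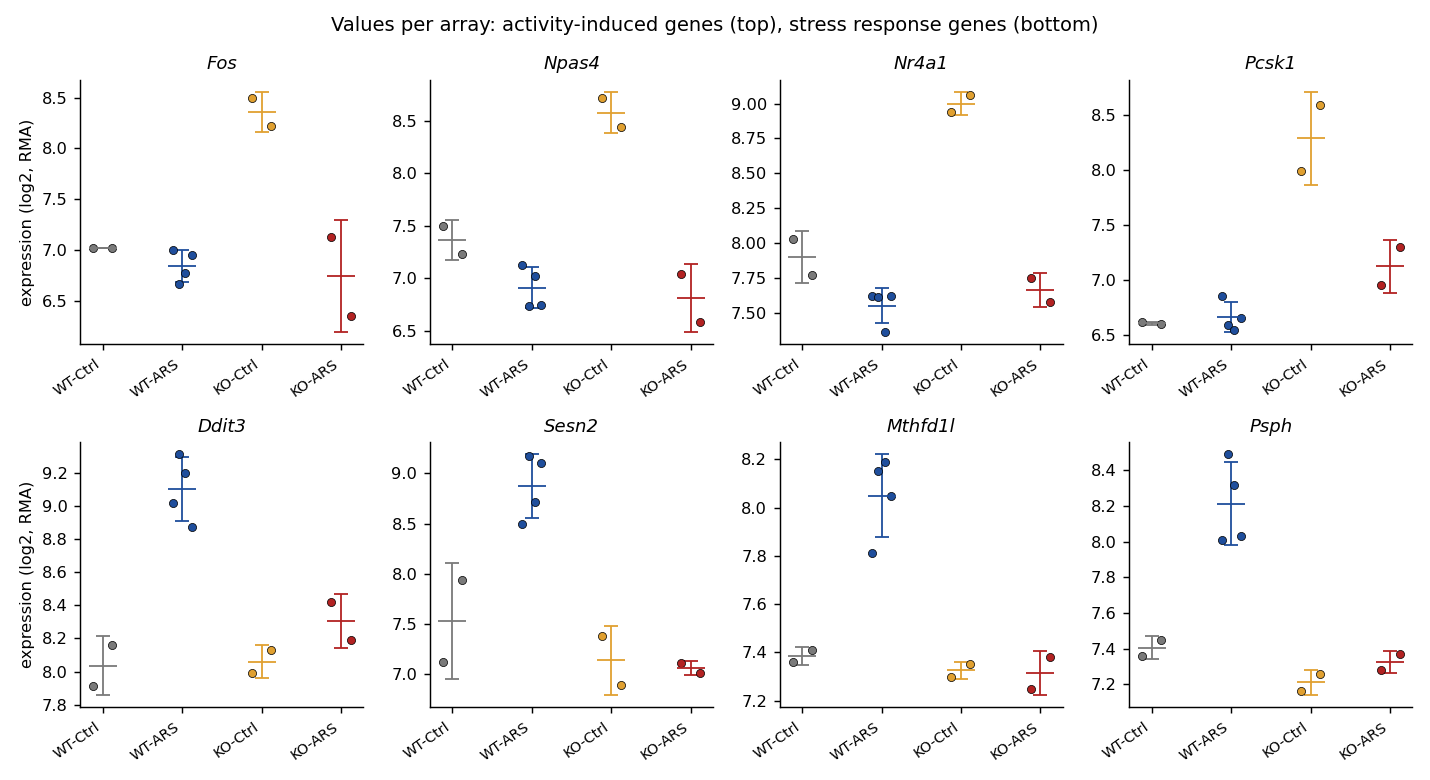
Log2 expression on each array (points) by group, with the group mean (long dash) and SD (bar), for 4 activity-induced genes (top) and 4 integrated stress response genes (bottom). In the top row the KO-Ctrl arrays stand above all other groups (Fos at 8.50 and 8.22), and in the bottom row the WT-ARS arrays do (Sesn2 at 8.50 to 9.17).

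Adcyap1 stood at 8.46 and 8.78 in KO-Ctrl and between 6.71 and 7.57 on every other array. It fell by 1.71 with arsenite in ATF4-deficient cultures (adjusted p = 0.00136) and its interaction was -1.09 (95% interval -1.51 to -0.68). Rxfp1, the relaxin receptor, was at 7.92 and 8.18 in KO-Ctrl, 6.76 and 6.65 in KO-ARS and 5.85 to 6.47 in wildtype. It was the only one of the 12 whose genotype difference also passed under arsenite (0.67, adjusted p = 0.0481, limma), and that call was kept in 1 of the 10 fits. All its wildtype values lay below the dim reference, so the size of its differences is not exact. Slc40a1, the iron exporter ferroportin, was at 6.99 and 7.09 in KO-Ctrl and between 5.75 and 6.46 elsewhere, with an interaction of -1.07. All arrays outside KO-Ctrl lay below the dim reference, so that size is not exact either, and the same holds for Lgr5 and Rgs13 in their lower groups. The fall of Slc40a1 was kept in 3 fits. Kitl, the ligand of the KIT receptor, was at 9.51 and 9.46 in KO-Ctrl and between 8.69 and 8.89 elsewhere, with an interaction of -0.78. For Lgr5, a receptor of R-spondins, the brightest probe set gave -0.89 and its other probe set, with a mean level of 5.18, gave 0.03.

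Across the activity-regulated lists the direction was shared by most members, where 45.5% of all genes were negative. The lists were drawn up with earlier results of these data known, so their counts are a description and no test. Of 39 genes in the immediate early and effector lists, 32 had a negative interaction, 13 of them at an unadjusted p under 0.05 and 1 was positive at that level, read against the 2.73% and 3.27% of all genes given above. The median interaction of the 39 was -0.20, against 0.02 for all genes (middle 50% of genes -0.11 to 0.15). With arsenite, 12 of the 39 fell in ATF4-deficient cultures and 0 rose, where 0.523% of all genes fell and 0.631% rose. In wildtype 2 of the 39 fell and 0 rose, where 0.252% of all genes fell and 0.230% rose. Under vehicle, 8 of the 39 were higher in ATF4-deficient cultures and 0 lower, where 0.180% of all genes were higher and 0.252% lower. The count of 12 was 5 without KO-Ctrl replicate 1 and 6 without KO-Ctrl replicate 2 or KO-ARS replicate 2. The count of 8 was 0 without WT-Ctrl replicate 2 or KO-Ctrl replicate 2, 3 without WT-Ctrl replicate 1 and 4 without KO-Ctrl replicate 1.

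Of the 17 immediate early transcription factors, 14 were negative (against 45.5% of all genes), 7 of them at an unadjusted p under 0.05 (against 2.73%). Beside Fos, Npas4 and the Nr4a genes these were Ier2 (-0.57) and Fosl2 (-0.53). Not all members followed. Egr3, an early growth response factor, was at 8.38 and 8.13 in WT-Ctrl, 7.25 to 7.60 in WT-ARS, 7.84 and 7.66 in KO-Ctrl, and 7.59 and 7.40 in KO-ARS. It fell in wildtype by 0.81 (adjusted p = 0.0286, limma, kept in 6 fits), and its interaction was positive at 0.55. Egr1 had an interaction of 0.13 and Klf4 of -0.02.

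Of the 22 effectors, 18 were negative and 6 of these had an unadjusted p under 0.05, beside 45.5% and 2.73% of all genes. Bdnf, the neurotrophin that is the best-known product of this program, was at 6.96 and 6.88 in WT-Ctrl, at 6.81 to 6.96 in WT-ARS, at 7.51 and 7.52 in KO-Ctrl, and at 6.96 and 6.90 in KO-ARS. Only the KO-Ctrl arrays stood apart. Bdnf fell in ATF4-deficient cultures by 0.59 (adjusted p = 0.0167, limma, kept in 6 fits) and its interaction was -0.54 (95% interval -0.81 to -0.27). Vgf, a secreted granin-like precursor, had -0.85 and Per1, the clock gene induced by cAMP, -0.78. Scg2, a granin, was at 9.59 and 9.39 in WT-Ctrl, 9.15 to 9.27 in WT-ARS, 10.73 and 11.09 in KO-Ctrl, and 10.41 and 9.93 in KO-ARS. It was higher in ATF4-deficient cultures under vehicle (1.42, adjusted p = 0.0110) and under arsenite (0.97, adjusted p = 0.0178, limma, kept in 7 fits), with an interaction of -0.45. Inhba fell in both genotypes, kept in 3 fits in wildtype and 5 in ATF4-deficient cultures, with an interaction of -0.09, and Plk2 had a positive interaction of 0.29.

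Promoter windows were read for the activity list members, because the cAMP element is the site that CREB binds. The RefSeq table on GRCm38.p6 held a window for 29 of the 39 genes, and 250 bases before the start were searched on both strands. The letters TGACGTCA lay in the windows of 4 of these 29 genes (13.8%), Maff, Pcsk1, Plk2 and Scg2, and in those of 1.77% of all 27025 genes with a window. The antioxidant element TGACNNNGC, bound by NRF2, lay in more of them, 10 of 29 (34.5%), against 11.5% of all genes. The AP-1 element TGANTCA, the C/EBP-ATF element TGATGNAA and the CArG box lay in 1 of 29 each (3.45%), against 7.82%, 3.91% and 1.62%. The sequences below show the letters in capitals with their flanks, 5′ to 3′ on the gene's strand, for the gene with a negative interaction past an unadjusted p of 0.001 and for a pair of effectors whose interactions had opposite signs. They are from chr13:75089749-75089816 (plus strand), chr1:79440057-79440124 (minus strand) and chr13:110394952-110395019 (plus strand).
Pcsk1: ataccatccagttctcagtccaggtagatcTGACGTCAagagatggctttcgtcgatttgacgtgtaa
Scg2: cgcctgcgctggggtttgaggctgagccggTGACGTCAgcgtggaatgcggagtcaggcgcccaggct
Plk2: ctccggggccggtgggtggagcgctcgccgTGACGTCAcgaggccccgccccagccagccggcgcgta
The letters began 78 bases before the start in Pcsk1, 68 in Scg2 and 62 in Plk2. Interactions of the genes with the letters were -1.22 for Pcsk1, -0.45 for Scg2, 0.29 for Plk2 and -0.18 for Maff, whose level was near the dim reference. Among the 12 genes named above with a lower response, 9 had a window, and Pcsk1 was the only match to any of the 5 motifs searched. A match describes letters, not binding.

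The feedback, neuropeptide and G protein regulator lists had medians nearer to 0 than the activity lists. Of 14 MAP kinase phosphatases and feedback genes, 11 were negative (against 45.5% of all genes), with a list median of -0.11. At an unadjusted p under 0.05 stood 3 of the 11, against 2.73% of all genes. Dusp1, a phosphatase induced with the immediate early genes, was at 8.67 and 8.68 in KO-Ctrl and between 7.72 and 8.15 elsewhere. It fell by 0.79 in ATF4-deficient cultures (adjusted p = 0.0207, limma, kept in 7 fits), with an interaction of -0.66. Spry2, an inhibitor of receptor tyrosine kinase signalling, fell there by 0.99 (adjusted p = 0.00543), with an interaction of -0.62. Of 18 neuropeptides and granins, 14 were negative with a median of -0.12, among them Adcyap1 (-1.09, described above), Crh (-0.66) and Pnoc (-0.66). Of 14 regulators of G protein signalling, 8 were negative (57.1%), near the 45.5% of all genes, and the median was -0.10. At an unadjusted p under 0.05 stood 3 of the negative and 2 of the positive ones. Rgs4 fell in both genotypes, with changes of -1.40 in wildtype and -2.02 in ATF4-deficient cultures (adjusted p = 0.00573 and 0.00152, limma), with an interaction of -0.62.

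The integrated stress response genes gave negative interactions of another shape. Here the wildtype arrays were higher with arsenite while the ATF4-deficient arrays had nearly the same mean with both treatments, and the median genotype difference was larger under arsenite. The lists of these genes were also drawn up with earlier results of these data known, so their counts describe and do not test. Of 54 measured genes in the lists of stress regulators, amino acid synthesis, amino acid transport and tRNA synthetases, 49 had a negative interaction. At an unadjusted p under 0.05 stood 24 of the 49 and 0 of the positive ones, beside 2.73% and 3.27% of all genes. The median interaction was -0.47, made of a median wildtype response of 0.54 and a median ATF4-deficient response of 0.00. The genotype difference was larger under arsenite in 48 of the 54, that is all but 6 (11.1%), where 52.5% of all genes had it larger under vehicle. For 28 genes (51.9%) the ATF4-deficient response had the same sign and was smaller, for 24 (44.4%) the responses had opposite signs and for 2 (3.70%) the ATF4-deficient response was larger. Over all genes these classes held 25.3%, 41.7% and 33.0%.

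Called components lay in wildtype and under arsenite. With arsenite 10 of the 54 rose in wildtype and 0 fell, beside 0.230% and 0.252% of all genes. In ATF4-deficient cultures 1 rose and 0 fell, beside 0.631% and 0.523%. Under arsenite 28 of the 54 were lower in ATF4-deficient cultures and 0 higher, where 0.271% of all genes were lower and 0.0721% higher. Under vehicle 2 were lower and 0 higher, beside 0.252% and 0.180%. These counts depended on single arrays. The count of 28 was 2 without KO-ARS replicate 1 and 0 without KO-ARS replicate 2, when 5 and 1 genes of all were called lower. It was 14 to 16 without WT-ARS replicate 2, 3 or 4. The count of 10 was 0 without WT-Ctrl replicate 1, when 0 genes of all passed in that comparison, and 2 without WT-ARS replicate 2 or 3. Estimates moved less than the calls. The median interaction lay between -0.60 and -0.31 over the 10 fits, with 47 to 51 of the 54 negative. The count of 24 was 9 without WT-Ctrl replicate 1, 10 without KO-Ctrl replicate 1 and 33 at most.

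Per array, the mean level of the 54 genes was 8.34 and 8.64 in WT-Ctrl, 8.88, 9.19, 9.01 and 9.04 in WT-ARS, 8.22 and 8.06 in KO-Ctrl, and 8.22 and 8.22 in KO-ARS. All WT-ARS arrays lay above all others. The 39 activity genes had means of 7.97 and 7.91 in WT-Ctrl, 7.66 to 7.84 in WT-ARS, 8.32 and 8.36 in KO-Ctrl, and 7.88 and 7.74 in KO-ARS. There the KO-Ctrl arrays lay above all others.

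**Figure D2:**
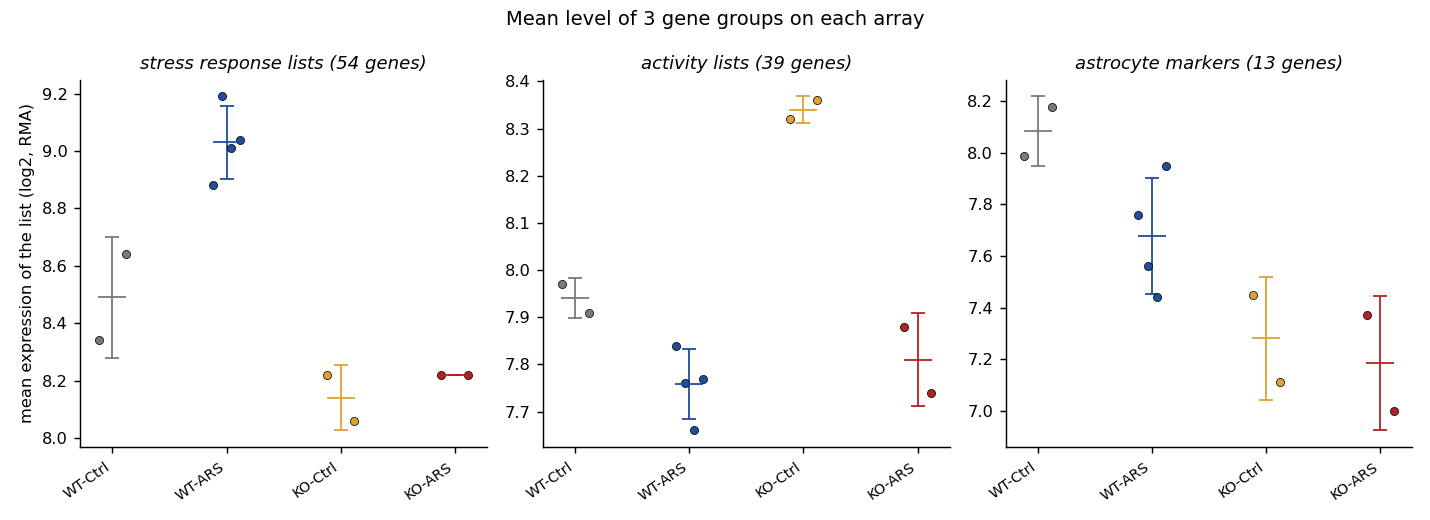
Mean log2 expression of 54 integrated stress response genes, 39 activity genes and 13 astrocyte markers on each array (points), with the group mean (long dash) and SD (bar). The WT-ARS arrays are highest in the first panel (8.88 to 9.19), the KO-Ctrl arrays in the second (8.32 and 8.36), and the WT-Ctrl arrays in the third (7.99 and 8.18).

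**Figure D3:**
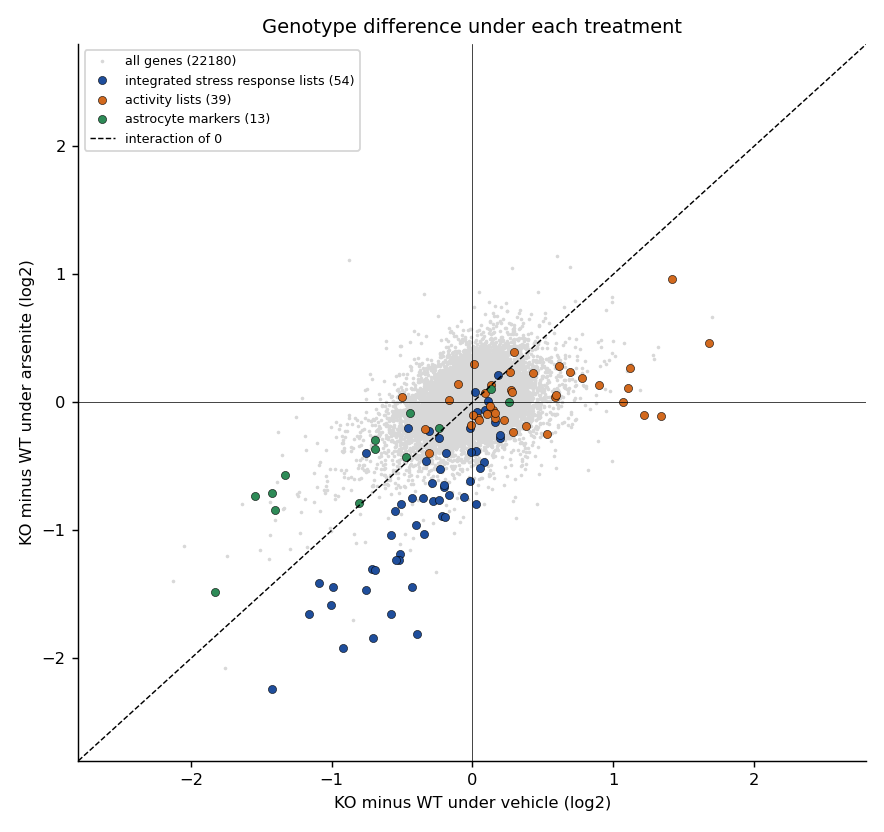
Genotype difference (ATF4-deficient minus wildtype, log2) under vehicle on the x axis and under arsenite on the y axis, one point per gene, with all 22180 genes in grey and 3 groups in colour. The dashed line marks an interaction of 0, and points below it are negative; stress response genes spread downward (median -0.75 under arsenite and -0.30 under vehicle), activity genes to the right (0.27 under vehicle and 0.04 under arsenite).

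Among the 17 stress regulators, 14 were negative and 8 of these had an unadjusted p under 0.05, beside 45.5% and 2.73% of all genes. The list median was -0.41. Ddit3 (probe set 17237978), which encodes the transcription factor CHOP, was at 7.91 and 8.16 in WT-Ctrl, at 9.02, 9.31, 9.20 and 8.87 in WT-ARS, at 7.99 and 8.13 in KO-Ctrl, and at 8.42 and 8.19 in KO-ARS. The vehicle groups overlapped, and the WT-ARS arrays lay above all others. It rose by 1.06 in wildtype (adjusted p = 0.0104) and its change in ATF4-deficient cultures was 0.25 (adjusted p = 0.58, limma). The rise was kept in 9 fits. The interaction was -0.81 (95% interval -1.26 to -0.37). The genotype difference of Ddit3 was 0.02 ± 0.15 (SE) under vehicle and -0.79 under arsenite (adjusted p = 0.0349, limma). The call under arsenite was kept in 1 of the 10 fits. Its estimate lay between -0.91 and -0.68 with 1 array left out.

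Sesn2 (probe set 17430861), an inhibitor of mTORC1 signalling, had the most negative interaction of the 4 stress response lists. It was at 7.12 and 7.94 in WT-Ctrl, at 8.50, 9.17, 8.71 and 9.10 in WT-ARS, at 7.38 and 6.89 in KO-Ctrl, and at 7.11 and 7.01 in KO-ARS. The WT-ARS arrays lay above all others and the WT-Ctrl arrays were far apart. The wildtype rise was 1.34 (adjusted p = 0.0411) and the interaction -1.41 ± 0.37 (SE), with a 95% interval of -2.21 to -0.61. The rise of Sesn2 was kept in 2 fits. Atf5 and Jdp2, both basic leucine zipper factors, had -0.67 and -0.56, Chac1, which degrades glutathione, -0.67 and Trib3, a pseudokinase that restrains the pathway, -0.41. Ppp1r15a, the phosphatase subunit that reverses eIF2 phosphorylation, had -0.45. Positive members were Ndrg1 (0.36), Fgf21 (0.06) and Stbd1 (0.03).

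Of 14 genes for amino acid synthesis and one-carbon metabolism, 13 were negative and 9 of those had an unadjusted p under 0.05. Over all genes these shares were 45.5% and 2.73%. The list median of -0.58 was the lowest of the 28 lists. Mthfd1l (probe set 17231387), of mitochondrial folate metabolism, was at 7.36 and 7.41 in WT-Ctrl, at 7.81, 8.15, 8.19 and 8.05 in WT-ARS, at 7.30 and 7.35 in KO-Ctrl, and at 7.25 and 7.38 in KO-ARS. It rose by 0.67 in wildtype (adjusted p = 0.0338), with -0.01 in ATF4-deficient cultures (adjusted p = 0.99, limma), and this rise was kept in 3 fits. Psph (probe set 17453124), the last enzyme of serine synthesis, was at 7.36 and 7.45 in WT-Ctrl, at 8.01, 8.49, 8.32 and 8.03 in WT-ARS, at 7.16 and 7.26 in KO-Ctrl, and at 7.28 and 7.37 in KO-ARS. In both genes only the WT-ARS arrays stood apart. Their interactions were -0.68 (95% interval -1.05 to -0.31) and -0.70 (95% interval -1.14 to -0.25).

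Shmt2, which moves a carbon from serine to folate in mitochondria, was at 8.11 and 8.75 in WT-Ctrl, at 9.24, 9.93, 9.34 and 9.33 in WT-ARS, at 7.99 and 7.45 in KO-Ctrl, and at 7.76 and 7.49 in KO-ARS. Its interaction was -1.13 (95% interval -1.90 to -0.36). Psat1, of serine synthesis, had -1.07, Mthfd2 -1.01, and Asns, asparagine synthetase, -0.68. Without WT-Ctrl replicate 1 the value of Psat1 was -0.70. Aldh1l2, a mitochondrial enzyme of folate metabolism, was lower in ATF4-deficient cultures already under vehicle (-1.09, adjusted p = 0.0218, limma). It was also lower under arsenite (-1.41, adjusted p = 0.00329, limma), with estimates of -1.55 to -1.28 when 1 array was left out. Its interaction was thus -0.32. Cbs, of transsulfuration, was the positive member, at 0.26.

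All 10 measured amino acid transporters were negative, but 1 of them, Slc3a2, had an unadjusted p under 0.05. Genotype differences were present under both treatments, with medians of -0.64 under vehicle and -1.34 under arsenite, and 6 of the 10 were called lower under arsenite, beside 0.271% of all genes. That count was 1 without KO-ARS replicate 1 and 0 without KO-ARS replicate 2. Slc3a2, the heavy chain of several transporters, was at 9.99 and 10.43 in WT-Ctrl, 10.81 to 10.94 in WT-ARS, 9.82 and 9.55 in KO-Ctrl, and 9.76 and 9.52 in KO-ARS. Its interaction was -0.70 (95% interval -1.14 to -0.27). Slc7a11, the cystine transporter that feeds glutathione synthesis, was at 6.13 and 7.04 in WT-Ctrl, at 8.70, 8.87, 8.67 and 9.12 in WT-ARS, at 5.51 and 4.82 in KO-Ctrl, and at 6.79 and 6.41 in KO-ARS. It rose in both genotypes, by 2.25 in wildtype (adjusted p = 0.00573) and by 1.43 in ATF4-deficient cultures (adjusted p = 0.0432, limma). The first rise was kept in 9 fits and the second in 2. The KO-Ctrl values lay below the dim reference, and the interval of the interaction, -0.82 (-1.67 to 0.02), included 0. Its interaction was -0.37 without WT-Ctrl replicate 1, and its other probe set, with a mean of 4.00, gave -0.05.

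Of 13 tRNA synthetase list members, 12 were negative, 6 of them at an unadjusted p under 0.05, and 8 were called lower in ATF4-deficient cultures under arsenite, beside 2.73% and 0.271% of all genes. The count of 8 was 0 without KO-ARS replicate 1 or KO-ARS replicate 2 and 3 without WT-ARS replicate 2, 3 or 4, and the count of 6 was 1 without WT-Ctrl replicate 1. Cars, the cysteine enzyme, was at 8.80 and 9.01 in WT-Ctrl, 9.34 to 9.67 in WT-ARS, 8.4 and 8.02 in KO-Ctrl, and 8.13 and 8.24 in KO-ARS. Its interaction was -0.62 (95% interval -1.06 to -0.18). Tars, the threonine enzyme, had -0.69, Eprs -0.59 and Nars -0.53. Without WT-Ctrl replicate 1 these were lower in size, at -0.43 for Tars and -0.35 for Nars. Wars, the tryptophan enzyme, was positive at 0.08.

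Promoters of the stress response members were read for the C/EBP-ATF element, on which ATF4 binds. A window was found for 41 of the 54 genes, and the letters TGATGNAA on either strand lay in 11 of them (26.8%), against 3.91% of all genes with a window. The 11 were Asns, Atf3, Chac1, Fgf21, Gars, Got1, Jdp2, Nupr1, Slc7a11, Tars and Vldlr. In the activity lists it was 1 of 29 (3.45%), Gadd45g. The antioxidant element lay in 8 of the 41 (19.5%) and the AP-1 element in 4 (9.76%), against 11.5% and 7.82% of all genes, and the cAMP element and CArG box in 1 each (2.44%). The stretches below show 5 members of different roles, with the letters in capitals; TTGCATCA is the reverse complement of TGATGCAA. They run from chr3:50443642-50443709 (minus strand), chr12:85599353-85599415 (plus strand), chr2:119351019-119351086 (plus strand), chr6:7693210-7693262 (minus strand) and chr15:11399659-11399703 (minus strand), all on GRCm38.p6 and 5′ to 3′ on the gene's strand.
Slc7a11: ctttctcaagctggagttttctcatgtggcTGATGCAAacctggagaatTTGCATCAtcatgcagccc
Jdp2: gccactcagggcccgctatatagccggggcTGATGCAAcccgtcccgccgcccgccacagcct
Chac1: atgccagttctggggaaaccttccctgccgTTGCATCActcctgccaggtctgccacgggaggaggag
Asns: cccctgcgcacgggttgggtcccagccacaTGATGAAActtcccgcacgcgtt
Tars: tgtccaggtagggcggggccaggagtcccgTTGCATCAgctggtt
Slc7a11 carried the letters on both strands, beginning 66 and 47 bases before the start, and the others carried them once. The 11 genes with the letters had a median interaction of -0.55, the 30 genes with a window and no match -0.46 and the 13 genes with no window -0.49. Over all windows of list members and named genes, matches to different motifs overlapped once.

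Astrocyte marker levels were unequal between the groups, although few single markers passed. Over 13 astrocyte markers the mean was 7.99 and 8.18 in WT-Ctrl, 7.76, 7.56, 7.44 and 7.95 in WT-ARS, 7.45 and 7.11 in KO-Ctrl, and 7.37 and 7.00 in KO-ARS. It was thus highest in WT-Ctrl and lower in both ATF4-deficient groups. The median genotype difference of these markers was -0.69 under vehicle and -0.42 under arsenite, and the median interaction was 0.35, with 2 of 13 negative. It was 0.08 without KO-ARS replicate 1, 0.11 without KO-Ctrl replicate 2 and 0.52 without KO-ARS replicate 2, and up to 6 of 13 were then negative. Astrocytes also express serine synthesis enzymes, and the part of astrocyte content in those values was not tested. Aqp4, the astrocyte water channel, was at 8.59 and 8.92 in WT-Ctrl, 7.38 to 8.39 in WT-ARS, 7.49 and 6.93 in KO-Ctrl, and 7.24 and 6.91 in KO-ARS. Of the 13 markers, 1 was called lower in ATF4-deficient cultures under vehicle (Gfap) and 1 under arsenite (Sox9), beside 0.252% and 0.271% of all genes, and each call was kept in 2 fits.

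The remaining cell type lists lay nearer to 0. Medians were -0.00 for 11 oligodendrocyte lineage markers, -0.13 for 12 microglia and macrophage markers, -0.02 for 12 endothelial and mural markers, -0.28 for 10 fibroblast and meningeal markers, 0.17 for 11 excitatory neuron markers, -0.07 for 12 inhibitory neuron markers, 0.03 for 12 pan-neuronal markers and 0.03 for 11 progenitor and cycling cell markers. In the fibroblast list 9 of the 10 were negative, against 45.5% of all genes, and 0 had an unadjusted p under 0.05. The wildtype arsenite mean of that list rests on WT-ARS replicates 2 and 3. Without WT-ARS replicate 2 the stress response median was -0.44, and without WT-ARS replicate 3 it was -0.50. For the activity lists these values were -0.23 and -0.24.

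**Figure D4:**
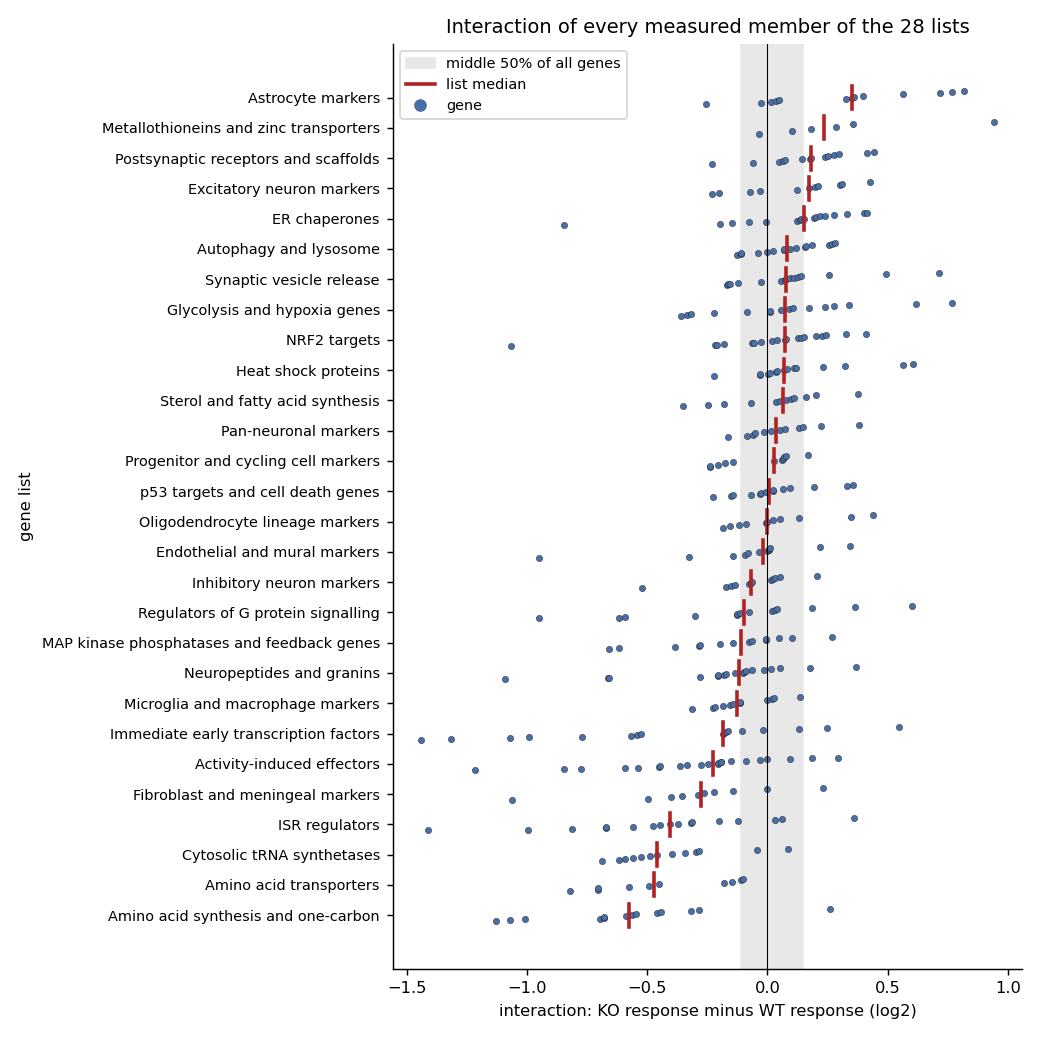
Interaction (ATF4-deficient response minus wildtype response, log2) of every measured member of the 28 gene lists, ordered by list median (red dash), with the middle 50% of all 22180 genes shaded (-0.11 to 0.15). The 4 stress response lists have the lowest medians (-0.41 to -0.58) and the astrocyte markers the highest (0.35).

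The NRF2 and heat shock lists had medians within the middle 50% of all genes. Of 19 NRF2 targets, 7 were negative, with a median of 0.07. Hmox1, the heme oxygenase that is the textbook arsenite-induced gene, was at 7.48 and 7.76 in WT-Ctrl, at 11.02, 11.04, 10.68 and 10.72 in WT-ARS, at 8.05 and 6.67 in KO-Ctrl, and at 9.90 and 9.18 in KO-ARS. It rose in both genotypes, by 3.25 in wildtype (adjusted p = 0.00339) and by 2.18 in ATF4-deficient cultures (adjusted p = 0.0215, limma), kept in 9 and 7 fits. Its interaction of -1.07 (95% interval -2.12 to -0.02) moved between -1.76 and -0.38 when single arrays were left out, and was nearest 0 without KO-Ctrl replicate 1. Txnrd1, thioredoxin reductase, rose in ATF4-deficient cultures by 0.79 (adjusted p = 0.0279, limma, kept in 7 fits), and its interaction was 0.33.

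Of 15 heat shock proteins 3 were negative, with a median of 0.07 that was -0.03 without KO-ARS replicate 2. Hspa1a, the inducible HSP70, was at 6.93 and 6.95 in WT-Ctrl, 7.11 to 7.83 in WT-ARS, 6.96 and 7.09 in KO-Ctrl, and 7.88 and 8.29 in KO-ARS. It rose by 1.06 in ATF4-deficient cultures (adjusted p = 0.0359, limma, kept in 2 fits). Its interaction was 0.60 (95% interval 0.01 to 1.2), and 0.40 without KO-ARS replicate 2. Of 17 endoplasmic reticulum chaperone genes 5 were negative. Their median of 0.15, near the upper quartile of all genes, lay between 0.08 and 0.21 when single arrays were left out. Herpud1, of protein degradation at that organelle, went against the list, at 9.18 and 9.53 in WT-Ctrl, 9.97 to 10.29 in WT-ARS, 9.44 and 9.10 in KO-Ctrl, and 9.39 and 8.98 in KO-ARS. Its interaction was -0.85 (95% interval -1.38 to -0.32). Pdia6, a disulfide isomerase, had an interaction of 0.33 and was higher in ATF4-deficient cultures under arsenite by 0.61 (adjusted p = 0.0094, limma, kept in 8 fits).

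On the positive side the naming rule gave 5 genes, 3 of which encode ion channels. The probe set numbers of Atf4 (17313100) and Cacna1i (17313106) are close. Those of Kcnq3 (17317593) and St3gal1 (17317675), also among the 5, are close to each other. Whether DNA around the altered gene has a part in these values was not tested. Cacna1i, a low-threshold calcium channel, had the smallest p of all genes named here. It was at 8.05 and 8.04 in WT-Ctrl, at 7.66, 7.5, 7.54 and 7.57 in WT-ARS, at 7.55 and 7.51 in KO-Ctrl, and at 7.91 and 7.97 in KO-ARS. The groups formed a crossing, in which WT-Ctrl and KO-ARS were high and the other groups low. It fell in wildtype by 0.47 (adjusted p = 0.0381), and its change in ATF4-deficient cultures was 0.41 (adjusted p = 0.0657, limma). The interaction was 0.88 ± 0.12 (SE), with a 95% interval of 0.61 to 1.15 and an adjusted p of 0.34. Neither of its called components passed in any fit with an array left out, while the interaction lay between 0.85 and 0.92.

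Kcnq3, a subunit of the M-type potassium channel, was at 10.35 and 10.39 in WT-Ctrl, at 9.71, 9.69, 9.41 and 10.03 in WT-ARS, at 9.09 and 9.15 in KO-Ctrl, and at 9.51 and 9.69 in KO-ARS. Under vehicle it was lower in ATF4-deficient cultures by -1.26 (adjusted p = 0.0159), and under arsenite the difference was -0.12 (adjusted p = 0.78, limma). Its interaction was 1.14 (95% interval 0.67 to 1.61). Kcnn2, a calcium-activated potassium channel, was at 8.36 and 8.11 in WT-Ctrl and between 7.38 and 7.69 on all other arrays. It fell in wildtype by 0.72 (adjusted p = 0.0187, limma, kept in 7 fits), and its interaction was 0.85.

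St3gal1, a sialyltransferase, was at 8.9 and 9.0 in KO-Ctrl and between 9.22 and 9.58 elsewhere. It rose with arsenite in ATF4-deficient cultures by 0.60 (adjusted p = 0.0215, limma, kept in 6 fits), and its interaction was 0.72. Plxnc1, a semaphorin receptor, was at 9.97 and 10.27 in WT-Ctrl, 10.40 to 10.58 in WT-ARS, 9.11 and 9.38 in KO-Ctrl, and 10.33 and 10.43 in KO-ARS. Its rise of 1.14 in ATF4-deficient cultures (adjusted p = 0.00308, limma) held without any 1 array, and its interaction was 0.75. In all 5 of these genes the genotypes were further apart under vehicle than under arsenite. The same held for 29 of the 32 genes with an unadjusted p under 0.001 and for 52.5% of all genes. As for the negative genes, the values share arrays with the interaction that chose them, so this is a description. Of these 5, 2 had a promoter window, and neither held any of the 5 motifs.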

How the data were processed

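The authors deposited expression values on the log2 scale. RNA had been hybridized to Affymetrix whole-transcript arrays, per the labels' protocols. Normalization was by RMA in Partek 6.6, as the series' design text and submitters' processing notes state. RMA equalizes array distributions, so a change shared by most transcripts is removed. No source used here names the build of the array design. Of 41345 probe sets, 23521 had 1 gene symbol, 1814 several and 16010 none; 23328 matched the GRCm38.p6 annotation by Entrez identifier. For 1082 genes with more than 1 probe set the brightest over all arrays was used. No gene was removed for low signal.

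A 4-group model was fitted to all 10 arrays (limma 3.58.1, R 4.3.3; 6 residual degrees of freedom, prior degrees of freedom 5.08, prior SD 0.124) with two-sided tests. The number of arrays limits the precision: the median SE of the interaction was 0.166. The step was tested on simulated data. Members and lists were chosen with earlier results of these data known. Text named up to 12 genes per direction (smallest unadjusted p under 0.001 where fewer passed, clones and olfactory or vomeronasal receptors left out), up to 4 members per list by p, and Atf4; of 408 listed genes 378 were measured. Promoter motif counts over whole lists were added after the values were seen. Alternatives were a dim gene filter, averaged probe sets, equal medians, array weights, a trended robust prior, a replicate block and leaving out each array; all probe sets, and leave-one-out fits of the components, were added after seeing the data.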

Additional observations from a re-analysis of the deposited data

Results flagged for a closer look

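In the only group of 4 arrays, WT-ARS, 3 of 123 named genes had 1 array apart from the rest, where chance gives about 1 in 20. The measure is the gap to the nearest array as a share of the group's range; Dixon's 95% critical value for 4 arrays was exceeded. Nr4a1 (0.946) was at 7.36 in replicate 3 and at 7.61 to 7.62 in the others. Shmt2 (0.852) was at 9.93 in replicate 2 and at 9.24 to 9.34 in the others. Pdia6 (0.83) was at 9.30 in replicate 1 and at 9.19 to 9.21 in the others.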

How the results depend on the processing

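The count of genes past the adjusted threshold in the interaction was 0 under every alternative run with limma. At an unadjusted p under 0.05 the count was 967 of 14162 genes with dim genes left out, 1316 with averaged probe sets, 1370 with equal medians, 1238 with array weights, 1323 with a trended robust prior, 1047 to 2007 with 1 array left out, and 2245 of 41345 probe sets. With a replicate block the count of calls was 0 (1366 at an unadjusted p under 0.05), and the medians were -0.49 for the stress response lists and -0.29 for the activity lists. The numbers 1 and 2 are the only ones shared by all groups. The correlations of replicate 1 minus replicate 2 between groups were -0.056 to 0.403, so not every pair of groups was above 0.1. The labels do not say what the numbers mark, and they were not treated as pairs. With 1 array left out, list medians that moved by more than the spread between replicates ranged from -0.341 to -0.193 for activity effectors, from -0.779 to -0.234 for amino acid transporters, from -0.381 to -0.176 for immediate early factors from -0.372 to -0.189 for both activity lists and from -0.060 to 0.364 for metallothioneins. Medians nearer 0 also changed by over 1.5 times or in sign: astrocyte markers 0.080 to 0.516, heat shock -0.028 to 0.186, vesicle release -0.067 to 0.179, postsynaptic 0.104 to 0.220, ER chaperones 0.084 to 0.208, NRF2 0.021 to 0.106, p53 -0.077 to 0.074, autophagy -0.016 to 0.152, sterol -0.104 to 0.145, glycolysis 0.031 to 0.136, neuropeptides -0.211 to -0.052, G protein regulators -0.126 to -0.021, microglia -0.204 to -0.032, fibroblast -0.376 to -0.177, endothelial -0.086 to 0.000, oligodendrocyte -0.027 to 0.058, excitatory 0.086 to 0.198, inhibitory -0.129 to 0.053, pan-neuronal -0.008 to 0.111 and progenitor -0.201 to 0.099. With dim genes left out, the immediate early median was -0.355. Single genes that changed sign in such fits were Calb2 (-0.201 to 0.612), Ccng1 (-0.001 to 0.390), Cdk1 (-0.505 to 0.023), Fdps (-0.011 to 0.415), Gad2 (-0.339 to 0.068), Mt1 (-0.377 to 1.084), Mt2 (-0.079 to 1.963) and Mt3 (-0.024 to 0.388). The cause was not tested.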

Other observations

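Synaptic genes were measured in a pair of lists. Of 14 postsynaptic receptors and scaffolds 2 were negative, with a median interaction of 0.18, and 0 had an unadjusted p under 0.05. Of 15 vesicle release genes 5 were negative, with a median of 0.08 that was -0.07 without KO-ARS replicate 1. Syn2, a synaptic vesicle phosphoprotein, was at 10.23 and 10.5 in WT-Ctrl, 10.19 to 10.44 in WT-ARS, 9.59 and 9.44 in KO-Ctrl, and 10.01 and 9.94 in KO-ARS. It was lower in ATF4-deficient cultures under vehicle (-0.85, adjusted p = 0.0218, limma), a call kept in 8 of 10 fits that each leave out 1 array, and its interaction was 0.49 (95% interval 0.14 to 0.84). Sv2b, a vesicle glycoprotein, had an interaction of 0.71 and Neurod6, a transcription factor of excitatory neurons, of 0.42.

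Metallothioneins, the small proteins that bind zinc and arsenic, could not be placed. Mt2 was at 12.15 and 11.95 in WT-Ctrl, at 12.79, 12.65, 12.53 and 12.82 in WT-ARS, at 11.72 and 9.68 in KO-Ctrl, and at 12.74 and 11.83 in KO-ARS. The KO-Ctrl arrays were about 2 log2 units apart, and the interval of the interaction, 0.94 (-0.48 to 2.36), was wide. Medians of other lists were 0.23 for metallothioneins and zinc transporters (-0.06 without KO-ARS replicate 1), 0.01 for p53 targets and cell death genes, 0.08 for autophagy and lysosome genes, 0.06 for sterol and fatty acid synthesis and 0.07 for glycolysis and hypoxia genes.

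Among 17824 probe sets with several or no gene symbols, 0 passed the adjusted threshold and 1217 (6.83%) had an unadjusted p under 0.05. Olfactory and vomeronasal receptor genes, which serve as a dim reference, had an unadjusted p under 0.05 in 122 of 1394 cases (8.75%), against 6.0% of all genes.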
